A study of Mus musculus with 2 samples.

Results

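The genes of respiratory complexes I, II and III were compared between P4H-TM KO and WT mouse cortex. Members were taken by name, as every gene whose symbol begins with Nduf or Uqcr together with Sdha, Sdhb, Sdhc and Sdhd, and Ndufa4l2 was left out. Of 18193 genes measured by a probe set with a single gene symbol, 55 were members, each represented by its probe set with the highest mean signal. They comprised 6 core subunits, 28 accessory subunits and 8 assembly factors of complex I, 4 subunits of complex II, 8 subunits of complex III, and Ndufa4, which carries a complex I name but encodes a subunit of cytochrome c oxidase. Ndufs6 and Ndufa11 had no probe set of their own and were not analysed among the members.

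The mice were naive males on the C57BL/6J strain aged 2.5 months, P4H-TM KO animals and their WT littermates. P4H-TM is a prolyl 4-hydroxylase of the endoplasmic reticulum membrane. The KO mice carry P4h-tm−/−, and how the allele was disrupted is not given in the sources used here. Cortical RNA of 4 mice was pooled for each genotype and hybridized to an Affymetrix mouse genome array, so there was 1 array per genotype. Differences are therefore given without an error between animals and without a p-value. The values are log2 expression values, and every difference is P4H-TM KO minus WT on the log2 scale.

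Complex I takes electrons from NADH, complex II takes them from succinate, and both pass them to ubiquinone, from which complex III hands them on to cytochrome c. Complexes I and III pump protons as they do so, and the gradient drives ATP synthesis, on which neurons depend for ion pumping and synaptic transmission. Core subunits of complex I carry the flavin and the iron-sulfur clusters, accessory subunits surround and stabilize them, and assembly factors help to build the complex without staying in it.

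P4htm, the targeted gene, had a value of 9.10 in P4H-TM KO and 11.05 in WT, a difference of −1.95, and the second probe set gave −1.64. Their position relative to the altered part of the gene was not checked. Of the markers of cortical cell types, 15 neuronal genes had a median difference of −0.01 and 15 astrocyte genes one of −0.06. For 11 microglial and 9 endothelial genes the medians were −0.02 and 0.01, whereas all 13 measured oligodendrocyte genes were lower in P4H-TM KO, with a median of −0.25. All 14 measured markers of the choroid plexus, an epithelium outside the cortex, were higher in P4H-TM KO, with a median of 1.595, and their summed linear signal was 37459 in P4H-TM KO and 25455 in WT. Most of that sum came from Ttr, at 14.86 in P4H-TM KO and 14.49 in WT, close to the top of both arrays' ranges, and the other 13 markers summed to 7721 in P4H-TM KO and 2445 in WT. The dimmest of these markers had 6.84 in P4H-TM KO and 5.90 in WT. The part of these tissues in the differences below was not tested. In pooled tissue, fewer cells of a type and less RNA per cell cannot be told apart.

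To see whether the KO of P4htm was accompanied by a change in the respiratory chain, all members were first compared as 1 group. The 55 genes had nearly the same values on both arrays. Their differences ran from −0.11, for Ndufaf3, to 0.15, for Ndufaf6 and Ndufaf7, with a median of 0.01 and an SD over genes of 0.05. Of the members, 30 were higher in P4H-TM KO, 19 were lower and 6 were equal to the last deposited decimal, and 41 differed by no more than 0.05. Among all genes 46% were higher and 49% lower in P4H-TM KO, and their median difference was 0.00. With each array centred on its median, 27 members were higher and 25 lower, and with the trend of the difference with signal removed by loess, 36 were higher and 19 lower. The split between directions thus moved with the scaling. No member reached 1.5-fold, against 0.759% of all genes. A difference of 1.1-fold, or 0.14 on the log2 scale, was reached by 2 of the 55 members, against 29.9% of all genes, and both were higher, against 13.5% of all genes.

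Most members have bright probe sets, and bright probe sets differ less between arrays, so the members were also set beside genes of like signal. Of the members, 41 had a mean signal above 11.39, the lower quartile of the members, and 0 of these 41 reached 1.1-fold, against 6.43% of 1229 genes in that range, of which 2.2% were higher by that much. Their SD over genes was 0.04, and that of the 1229 genes was 0.07. In the bright range 23 of the 41 members were higher and 13 lower in P4H-TM KO, and 45.6% of the 1229 genes were higher and 47.7% lower. The genes of the bright range also had a median of 0.00, and none of them reached 1.5-fold.

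**Figure D1:**
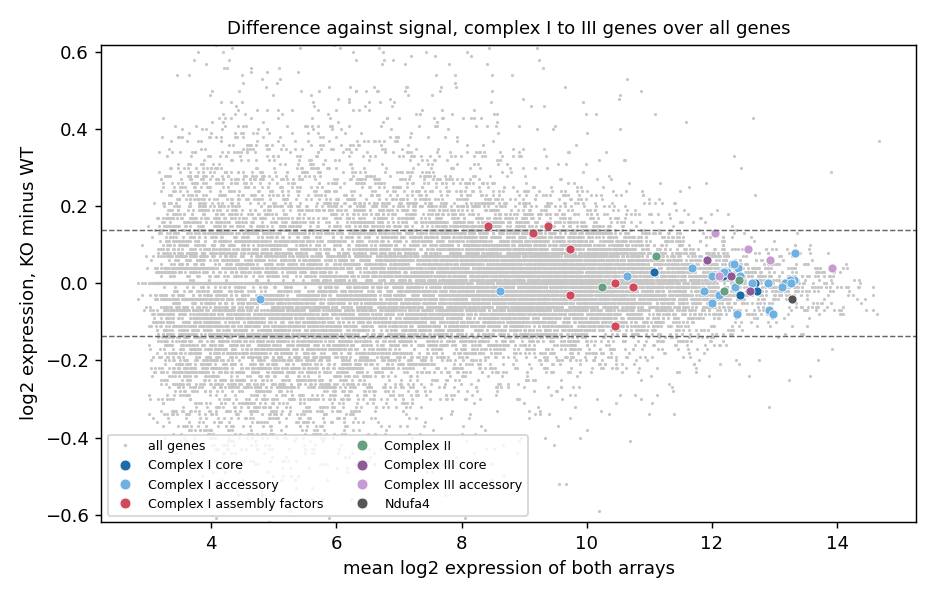
Log2 difference, P4H-TM KO minus WT, of each gene against its mean log2 expression on both arrays, with members coloured by class over all genes in grey and dashed lines at 1.1-fold. There is 1 array per genotype and no error bar, and 114 genes lie outside the plotted range; the bright members lie close to 0, and the assembly factors sit in a dimmer range where the grey cloud is wider.

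The core subunits of complex I were closest to equal. All 6 lay between −0.03 and 0.03, with a median of 0.01, and 3 were higher, 2 lower and 1 equal. Ndufv1, which holds the flavin that accepts electrons from NADH, had 12.44 in P4H-TM KO and 12.47 in WT. Ndufv2, an iron-sulfur subunit next to it, had 12.71 in P4H-TM KO and 12.73 in WT. These were the lowest of the core differences, at −0.03 and −0.02. Ndufs1, the largest subunit of the complex and carrier of several iron-sulfur clusters, had 11.09 in P4H-TM KO and 11.06 in WT. Ndufs3, a subunit of the part that binds ubiquinone and one whose protein the study blotted in astrocytes, had 12.18 in P4H-TM KO and 12.15 in WT. Both differed by 0.03, the highest value of the class. Ndufs7 and Ndufs8, which carry the last iron-sulfur clusters before ubiquinone, differed by 0.02 and 0.00. Ndufs8 was measured by 6 probe sets, and these lay between −0.03 and 0.04.

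The accessory subunits of complex I lay on both sides of 0. Of 28 members, 14 were higher, 10 lower and 4 equal, with a median of 0.005 and a range from −0.08 to 0.08. With the arrays centred, 12 were higher and 14 lower, and with the signal trend removed 19 were higher and 9 lower. None reached 1.1-fold on its brightest probe set. The 8 subunits of the matrix arm, where NADH is oxidized, had a median of 0.02, and the 19 of the membrane arm, where protons are pumped, had one of 0.00. Ndufab1, an acyl carrier protein found in both arms, differed by −0.01.

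In the matrix arm, Ndufa2 had 12.43 in P4H-TM KO and 12.39 in WT, and its difference of 0.04 was the highest there. Ndufa7 followed with 0.03, and its other 4 probe sets were all higher in P4H-TM KO too, by 0.02 to 0.14. Ndufa5, a subunit of the part that binds ubiquinone, had 12.36 in P4H-TM KO and 12.44 in WT, the lowest difference of the arm. Its second probe set also differed downward, by −0.10. Ndufa9, at the junction of the arms, differed by −0.02. Ndufa6, Ndufs4 and Ndufv3 each differed by 0.02 and Ndufa12 by 0.01. Ndufs4, which joins late in assembly, had 4 probe sets from −0.04 to 0.52, and the last of these was its dimmest, with 4.79 in P4H-TM KO and 4.27 in WT.

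In the membrane arm, Ndufa1 had 13.37 in P4H-TM KO and 13.29 in WT, which gave the highest difference of all accessory subunits, 0.08. Ndufb7 and Ndufs5 differed by 0.05 each, and the second probe set of Ndufb7 by 0.07. Ndufb11 had 12.93 in P4H-TM KO and 13.01 in WT, and Ndufc1 had 12.87 in P4H-TM KO and 12.94 in WT. These were the lowest members of the arm, at −0.08 and −0.07, but the other probe sets of Ndufb11 differed by −0.02 and 0.03 and that of Ndufc1 by −0.02. Ndufb3 followed with −0.05. Ndufa10, Ndufb8, Ndufb9 and Ndufc2 were equal on both arrays. The other members, Ndufa3, Ndufa8, Ndufa13, Ndufb1, Ndufb2, Ndufb4, Ndufb5, Ndufb6 and Ndufb10, lay between −0.04 and 0.04. Ndufb4 was measured alone only by a probe set near background, with 4.76 in P4H-TM KO and 4.80 in WT, while a brighter one that its copies Ndufb4b and Ndufb4c share had 12.33 in P4H-TM KO and 12.31 in WT.

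**Figure D2:**
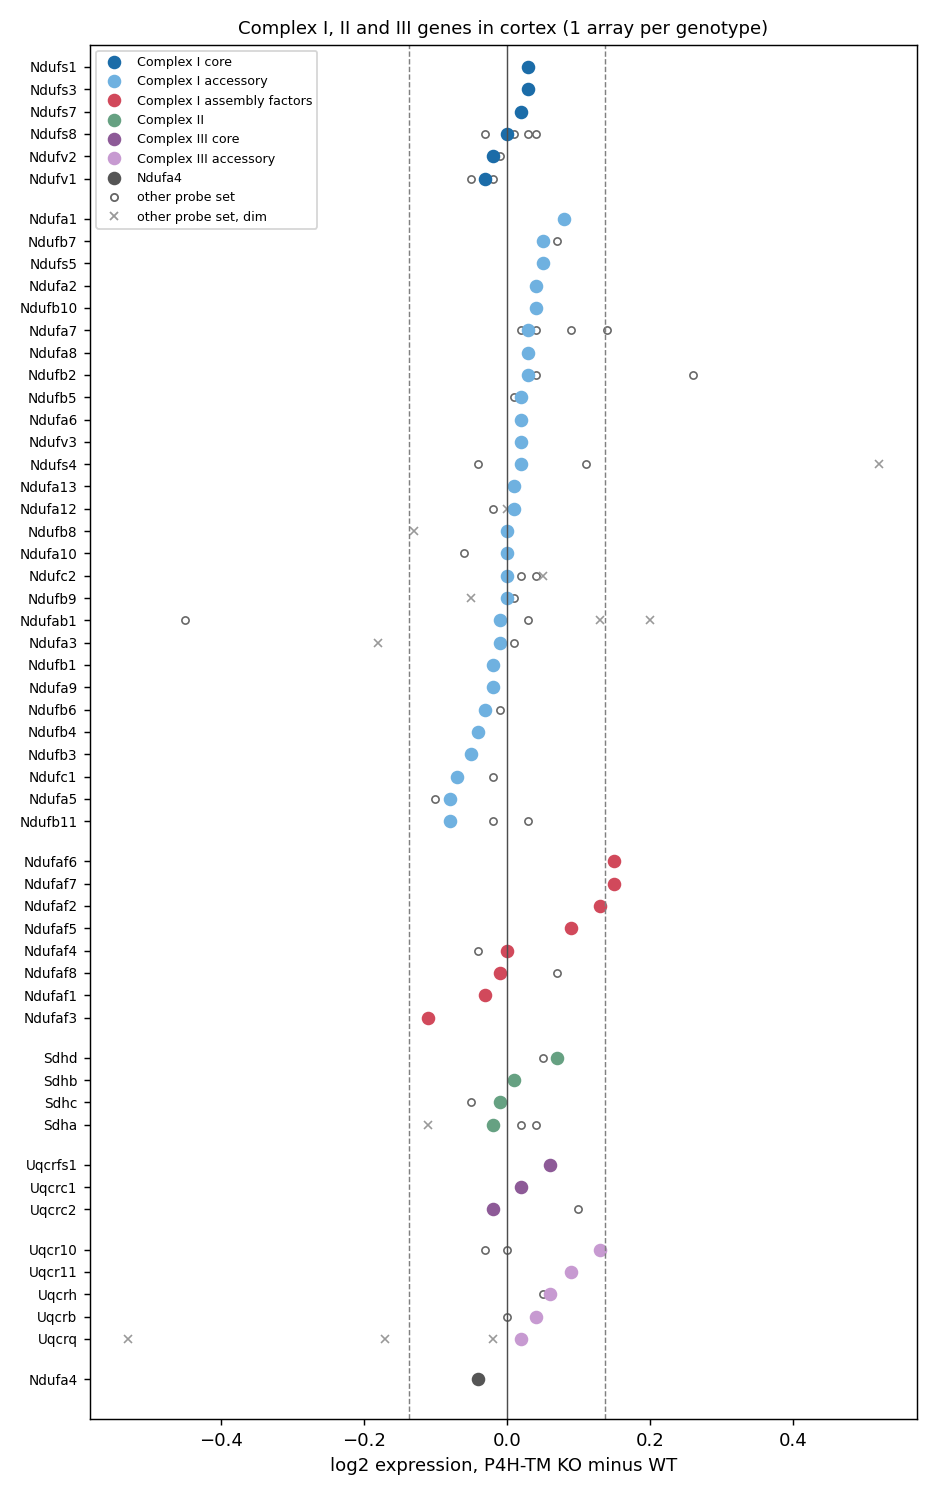
Log2 difference, P4H-TM KO minus WT, of each member on its brightest probe set (coloured by class), on its other probe sets (open circles) and on those below the median signal of 6.385 (crosses), with dashed lines at 1.1-fold. There is 1 array per genotype and no error bar. On the brightest probe sets the core subunits of complex I lie within 0.03 of 0. All 5 accessory subunits of complex III lie to the right of 0 (Uqcrq lies to the left with probe sets averaged), and the assembly factors run from −0.11 to 0.15.

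The assembly factors of complex I held the 3 highest values and the lowest value among all members, with the third place shared with a complex III gene. Their roles are known mainly from human cells. Ndufaf7, a methyltransferase, had 9.46 in P4H-TM KO and 9.31 in WT. Ndufaf6, required for the membrane part of the complex, had 8.50 in P4H-TM KO and 8.35 in WT. Both differed by 0.15, or 1.11-fold, and were the 2 members past 1.1-fold. Ndufaf2, a relative of Ndufa12 that holds its place during assembly, had 9.20 in P4H-TM KO and 9.07 in WT, a difference of 0.13. Ndufaf5, which hydroxylates the core subunit Ndufs7, had 9.77 in P4H-TM KO and 9.68 in WT, a difference of 0.09. Its partner Ndufaf8 differed by −0.01 on its brighter probe set and by 0.07 on the other.

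Ndufaf3 and Ndufaf4 act together in the early assembly of the ubiquinone-binding part, and they were not alike here. Ndufaf3 had 10.39 in P4H-TM KO and 10.50 in WT, a difference of −0.11, while Ndufaf4 had 10.45 on both arrays and −0.04 on its second probe set. Ndufaf1, an assembly factor of the membrane arm, had 9.71 in P4H-TM KO and 9.74 in WT. Of the 8 factors 4 were higher, 3 lower and 1 equal, and their median of 0.045 covers this spread. Their SD over genes was 0.10, against 0.04 for the 46 structural subunits. The probe sets of the assembly factors had mean signals from 8.43 to 10.75. The 2 of 8 assembly factors past 1.1-fold, both higher, compare with 15.6% of 5299 genes in this range in either direction and 9.02% higher, and the SD over those genes was 0.13. In that range 52.3% of genes were higher and 43% lower in P4H-TM KO, and 0.434% reached 1.5-fold, which no assembly factor did. Only 3 structural subunits had a signal in this range, and these lay between −0.02 and 0.02.

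Complex II was even between arrays. Sdha, the flavoprotein that oxidizes succinate and whose protein the study blotted, had 12.18 in P4H-TM KO and 12.20 in WT. Sdhb, the iron-sulfur subunit, had 12.43 in P4H-TM KO and 12.42 in WT. Of the membrane anchors, Sdhc had 10.24 in P4H-TM KO and 10.25 in WT. Sdhd, the other anchor, had 11.14 in P4H-TM KO and 11.07 in WT, and at 0.07 it was the highest of the 4, with 0.05 on its second probe set. The median of the complex was 0.00, with 2 genes higher and 2 lower.

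Complex III had the highest median, 0.05, with 7 of 8 genes higher in P4H-TM KO and Uqcrc2 lower. Of all genes 46% were higher, and of genes in the bright range, where the brightest probe sets of complex III lie, 45.6%. With centred arrays and with the signal trend removed, 7 were again higher and Uqcrc2 lower. With probe sets averaged 7 were higher too, but Uqcrc2 was then among them, at 0.04, and Uqcrq was the lower one, at −0.175. Without probe sets that may cross-match other transcripts, 6 were higher, and Uqcrq, at −0.17, and Uqcrc2 were lower. With another probe set above the median signal used for the 4 genes that have one, 6 were higher, 1 lower and 1 equal, and the median was 0.035. All differences on the brightest probe sets were below 1.1-fold. All 5 accessory subunits were higher on these probe sets, with a median of 0.06. Uqcr10, a small subunit, had 12.12 in P4H-TM KO and 11.99 in WT, which at 0.13 was the highest difference of the complex. Its other 2 probe sets, at −0.03 and 0.00, did not show it. Uqcr11, another small subunit, had 12.62 in P4H-TM KO and 12.53 in WT and has 1 probe set. Uqcrh, the hinge protein that binds cytochrome c1, had 12.95 in P4H-TM KO and 12.89 in WT, with 0.05 on its second probe set. Uqcrb had 13.94 in P4H-TM KO and 13.90 in WT, and 0.00 on its second probe set. Uqcrq had 12.12 in P4H-TM KO and 12.10 in WT, but its other 3 probe sets, all below the median signal, ran from −0.53 to −0.02.

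Among the other complex III genes, Uqcrfs1, the Rieske iron-sulfur protein that takes electrons from ubiquinol, had 11.95 in P4H-TM KO and 11.89 in WT. The core proteins Uqcrc1 and Uqcrc2, which form the matrix side of the complex, differed by 0.02 and −0.02. Uqcrc2, whose protein the study blotted, had 12.60 in P4H-TM KO and 12.62 in WT, and 12.46 in P4H-TM KO and 12.36 in WT on its second probe set. Cyc1, the cytochrome c1 subunit that the name rule does not take, had 12.24 in P4H-TM KO and 12.20 in WT. The 2 probe sets of Uqcrc2 thus pointed opposite ways. For members with several probe sets above the median signal, the pooled SD between the differences of their probe sets was 0.07 over 28 genes. For the 19 members with several probe sets in the bright range, where the brightest probe sets of complex III lie, it was 0.03. Of complex III only Uqcrh and Uqcrc2 enter this value. The other probe sets of Uqcr10, Uqcrb and Uqcrq fall below the bright range, so it does not give the precision of the complex.

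**Figure D3:**
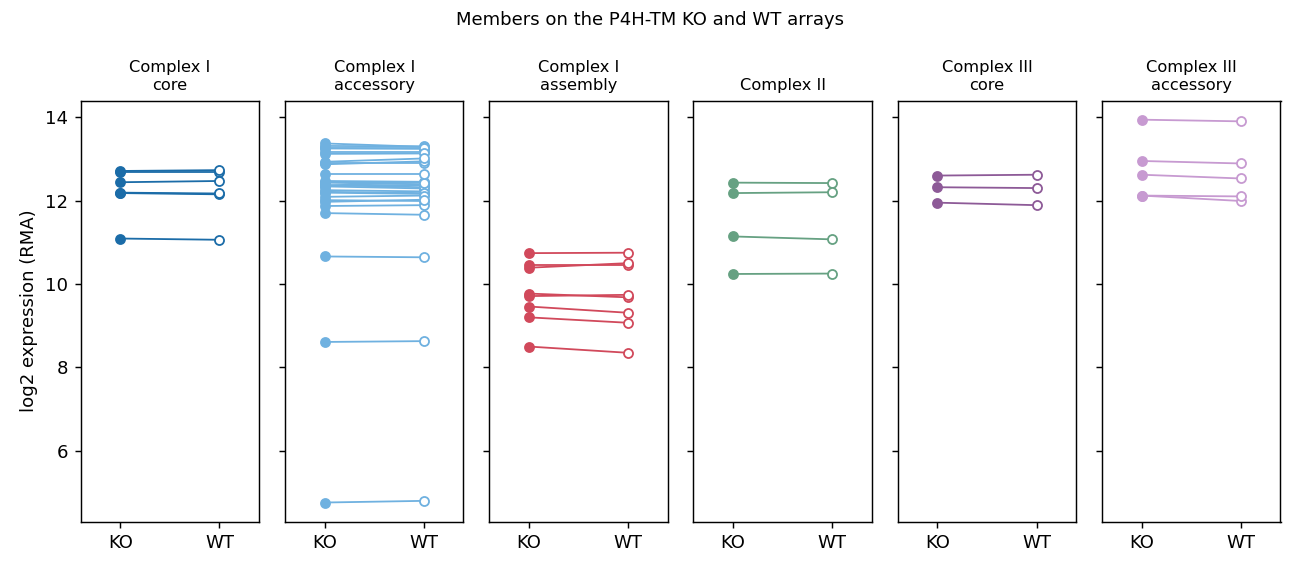
Log2 expression of each member on the P4H-TM KO array (filled, left) and the WT array (open, right), joined by a line, by class. There is 1 array per genotype and no error bar, and probe sets of different genes cannot be ranked by level; the lines are close to flat in every class, and the steepest belong to assembly factors, which differ by up to 0.15.

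The members had 112 probe sets in all, and 57 were not used above. Of these 57, 30 were higher and 23 lower in P4H-TM KO, with a median of 0.01, and 4 were past 1.1-fold upward and 4 downward, against 29.9% of all genes. Of the 45 at or above the median signal, 2 were past 1.1-fold upward and 1 downward, against 20.7% of genes at such signals. The 27 with signals in the bright range lay between −0.10 and 0.10, and 0 of them reached 1.1-fold. Wide differences were found on dimmer ones. Ndufab1 had −0.45 on a probe set with 6.18 in P4H-TM KO and 6.63 in WT. Ndufb2 had 0.26 on one with 6.62 in P4H-TM KO and 6.36 in WT. Ndufs4 and Uqcrq had the widest, described above.

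The genes were also placed relative to the targeted locus. Ndufaf3, Uqcrc1 and Sdhd lie on chromosome 9, as P4htm does. Ndufaf3 is separated from P4htm by 3 measured genes and Uqcrc1 by 8, whereas 498 lie between Sdhd and P4htm. Of the 10 measured genes next to P4htm, 5 on each side and Ndufaf3 among them, 6 were lower in P4H-TM KO, 3 higher and 1 equal. Among all genes 49% were lower and 46% higher. The 3 higher neighbours differed by 0.03 to 0.08. The nearest on either side, Wdr6 and Arih2, differed by −0.16 and −0.13. Whether the locus has a part in the Ndufaf3 value was not tested.

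Because nuclear respiratory genes are commonly activated by the factors NRF1, GABP of the ETS family and YY1, and P4H-TM acts on HIF, promoter windows of 300 bases from RefSeq (GRCm38.p6), with 250 before and 50 after the start site, were searched on both strands. Windows were found for 47 members. The NRF1 motif, GCGC and TGCGC with any base between them, was in 10 of 47, against 8.61% of 14452 measured genes. CCGGAAG (ETS) was in 10 of 47, against 15.0%, AAGATGGC (YY1) in 7 of 47, against 4.07%, and ACGTG (the core of HIF sites) in 10 of 47, against 26.1%. No search letters contain another set whole. The median difference was 0.02 for members with the NRF1 letters and 0.01 for those without, 0.02 and 0.01 for ETS, −0.01 and 0.015 for YY1, and 0.005 and 0.01 for the HIF core. A match is a description of the letters and not a binding site.

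The windows of 4 members are printed 5′ to 3′ with matches in capitals. Ndufaf3 (chr9:108567387-108567686, minus strand) and Uqcrc1 (chr9:108936398-108936697, plus strand) are shown because they lie near P4htm, and Ndufaf3 had the lowest difference of all members. Uqcr10 (chr11:4704295-4704594, minus strand) and Uqcr11 (chr10:80406772-80407071, minus strand) are shown as the complex III genes with the highest differences.
Ndufaf3: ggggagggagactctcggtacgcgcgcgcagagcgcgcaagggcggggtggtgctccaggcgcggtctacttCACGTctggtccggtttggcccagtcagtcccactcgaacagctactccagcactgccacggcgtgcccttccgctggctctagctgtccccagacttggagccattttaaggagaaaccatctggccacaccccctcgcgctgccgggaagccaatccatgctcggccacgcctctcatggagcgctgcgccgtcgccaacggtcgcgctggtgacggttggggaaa
Uqcrc1: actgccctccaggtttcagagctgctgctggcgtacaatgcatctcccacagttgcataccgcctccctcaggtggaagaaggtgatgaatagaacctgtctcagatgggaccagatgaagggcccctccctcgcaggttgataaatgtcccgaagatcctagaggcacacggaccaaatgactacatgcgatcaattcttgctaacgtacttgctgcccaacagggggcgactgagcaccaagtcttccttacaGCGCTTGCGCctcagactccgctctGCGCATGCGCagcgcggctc
Uqcr10: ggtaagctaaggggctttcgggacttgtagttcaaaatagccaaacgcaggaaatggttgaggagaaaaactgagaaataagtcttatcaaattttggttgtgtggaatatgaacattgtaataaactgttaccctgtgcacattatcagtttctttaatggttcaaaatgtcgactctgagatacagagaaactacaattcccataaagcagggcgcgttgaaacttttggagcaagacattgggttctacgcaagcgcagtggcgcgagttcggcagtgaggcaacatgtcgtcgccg
Uqcr11: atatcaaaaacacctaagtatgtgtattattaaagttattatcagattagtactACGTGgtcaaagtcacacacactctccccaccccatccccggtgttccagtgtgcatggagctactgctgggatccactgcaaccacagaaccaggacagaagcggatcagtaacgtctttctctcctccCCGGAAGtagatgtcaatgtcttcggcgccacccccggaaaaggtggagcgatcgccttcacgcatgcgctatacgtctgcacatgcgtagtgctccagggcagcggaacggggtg
Ndufaf3 has the HIF core on the opposite strand at position −178. Uqcrc1 has the NRF1 letters at positions 6 and 31, and its difference was 0.02. Uqcr11 has the HIF core at −196 and the ETS letters at −66. Uqcr10, with the higher value of the pair, has none of the letters searched.

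Ndufa4, the cytochrome c oxidase subunit with a complex I name, had 13.26 in P4H-TM KO and 13.30 in WT, a difference of −0.04. Other mitochondrial genes, from lists written from general knowledge, give the setting of these values. Of 15 complex IV subunits 9 were higher and 5 lower, with a median of 0.04, and 3 were past 1.1-fold. The share past 1.1-fold was 29.9% over all genes, 20.7% at or above the median signal and 6.43% in the bright range. The 3 were Cox8b, Cox6b2 and Cox7a1, with mean signals of 6.875, 6.515 and 6.665. Cox8b, a subunit isoform of muscle and brown fat, was the highest, with 7.38 in P4H-TM KO and 6.37 in WT, and Cox7c the lowest, at −0.07. Of 15 genes of complex V, the ATP synthase, 11 were higher and 4 lower, with a median of 0.03 and none past 1.1-fold. Of all genes 46% were higher, and of genes in the bright range 45.6%. Atp5j had the highest difference of the complex V genes, 0.08, and Atpif1, the inhibitor of the synthase, the lowest, −0.04.

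Assembly genes that the name rule does not take differed in both directions. Of 11 other complex I assembly factors, 5 were higher and 5 lower, with a median of 0.00, and 2 were past 1.1-fold upward and 1 downward. The share in either direction was 29.9% over all genes and 20.7% at or above the median signal. It was 15.6% in the signal range of the 8 assembly factors among the members. The 2 upward genes, with mean signals of 8.42 and 6.735, lie below that range. Dmac2 had 8.52 in P4H-TM KO and 8.32 in WT, the highest of the list at 0.20. Timmdc1, a membrane-arm factor, had 8.63 in P4H-TM KO and 8.77 in WT, the lowest at −0.14. The 4 complex II assembly factors had a median of 0.015, from −0.06 for Sdhaf1 to 0.09 for Sdhaf2. Cyc1 and 6 assembly genes of complex III had a median of −0.03, from −0.11 for Lyrm7 to 0.06 for Bcs1l. The value for Lyrm7 came from a dim probe set, with 4.28 in P4H-TM KO and 4.39 in WT.

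Of 12 regulators of mitochondrial gene expression, 6 were higher and 4 lower, with a median of 0.005. Ppargc1a, the coactivator of mitochondrial biogenesis, had 10.43 in P4H-TM KO and 10.31 in WT. Gabpb1, a subunit of the ETS-family factor GABP, was the lowest, at −0.17, on a dim probe set. Citrate cycle enzymes had a median of 0.015 over 12 genes, from −0.08 for Idh3g to 0.17 for Ogdh, and 2 of the 12 were past 1.1-fold. The share was 29.9% over all genes, 15.6% in the signal range of the assembly factors and 6.43% in the bright range. The list has genes in both ranges, but 1 of the 2 past 1.1-fold, with a mean signal of 8.345, lies below both. At or above the median signal the share was 20.7%. Genes of protein import and the outer membrane had one of 0.01 over 11 genes, from −0.04 for Tomm70a to 0.10 for Tomm40.

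**Figure D4:**
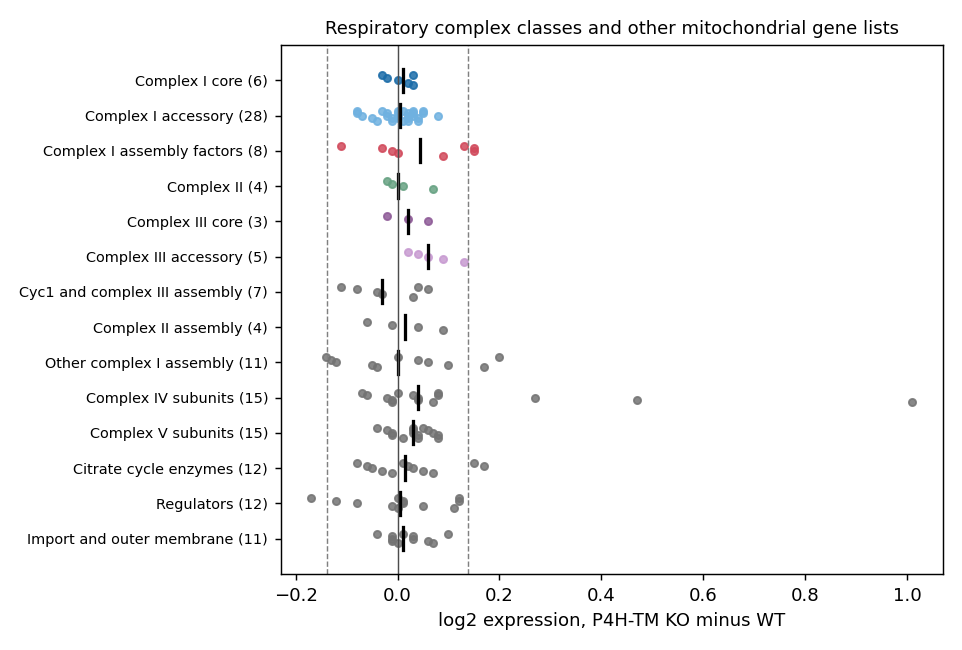
Log2 difference, P4H-TM KO minus WT, of each gene of the respiratory complex classes (coloured) and of other mitochondrial gene lists (grey), with the number of genes in brackets, black bars at the medians and dashed lines at 1.1-fold. There is 1 array per genotype and no error bar; every class median lies between 0.00 and 0.06, and the point farthest to the right is Cox8b of complex IV at 1.01.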

How the data were processed

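Total RNA of cortical tissue from 4 mice per genotype was pooled and hybridized to Affymetrix mouse genome arrays, 1 per genotype. The authors quantified the intensities with the GeneChip Operating System, normalized them with GenePattern and deposited log2 values rounded to 2 decimals. RMA, which corrects background, normalizes between arrays and summarizes probe sets, is named in the submitters' processing notes without a version. Values ran from 2.74 to 14.89 in P4H-TM KO and from 2.69 to 14.91 in WT, with medians of 6.39 and 6.38, and normalization forces the arrays to a common distribution. The number of arrays limits the precision.

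Of 45101 probe sets, 34945 were annotated with a single gene symbol, after 64 controls were set aside, and 34741 of these matched the RefSeq table by gene ID and 0 changed symbol. Members and lists were chosen with earlier results of these data known. The rule for named genes took P4htm, the 2 highest and 2 lowest members of each class, members the study displayed or blotted, the brightest and dimmest, those whose probe sets differ widely, and the highest and lowest gene of each other pathway list. The other members, Cyc1, Wdr6 and Arih2 were named after their values were seen. Class roles come from general knowledge. No test was run. Instead, counts past 1.1-fold and 1.5-fold and medians were set beside all genes and beside genes of like signal. Alternatives averaged probe sets, dropped probe sets that can match other transcripts, centred the arrays, removed the signal trend by loess (span 0.3), filtered on the median signal of 6.385, used means, changed the threshold or changed membership. The counting was tested on simulated data only for planted changes well past 1.5-fold, counted at 1.5-fold. Counts past 1.1-fold and counts of direction were not covered by that simulation. Calculations used pandas 2.3.3 and numpy 2.4.6 under Python 3.11.15, loess came from statsmodels 0.14.6, and plots from matplotlib 3.10.9.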

Additional observations from a re-analysis of the deposited data

Results flagged for a closer look

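Outside the members, some probe sets above the median signal exceeded their WT value by more than 0.10 in P4H-TM KO. This size is the pooled SD between probe sets of a gene. Only upward differences were sought, and differences of this size were also found downward. A probe set shared by Ndufa13 and Yjefn3 had 7.09 in P4H-TM KO and 7.27 in WT. One shared by Ndufb2 and Adck2 had 7.49 in P4H-TM KO and 7.64 in WT. The brighter probe set that Ndufa11 shares with its copy Ndufa11b had 11.93 in P4H-TM KO and 11.82 in WT, a difference of 0.11, while a dimmer one of the same pair had 6.44 in P4H-TM KO and 6.93 in WT. Ndufa11 encodes an accessory subunit of the membrane arm of complex I. Ndufa4l2, a hypoxia-induced relative of Ndufa4 that was left out by the rule, had 6.56 in P4H-TM KO and 6.41 in WT, a difference of 0.15 on a probe set close to the median signal.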

How the results depend on the processing

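No paired analysis was possible because there is 1 array per genotype, and for the same reason no replicate could be left out. The sharing of probe sets, the removal of chromosome 9 members and the other probe sets of complex III are alternatives added with the data in view. The median of all members (0.01) ranged from 0.00 with centred arrays to 0.02 with probe sets averaged or shared ones included. Of 41 alternatives to medians, 40 moved them by less than the pooled SD between probe sets over the root of the number of genes. That SD was the one over all genes, 0.10, and the one over members was 0.07. The exception was the median of the assembly factors (0.045), which was 0.00 without cross-matching probe sets (those whose names end in _s_at or _x_at), a setting that drops Ndufaf7. The 2 members higher by 1.1-fold numbered 1 in that setting, 0 at 1.2-fold and 3 with probe sets averaged, where Ndufs4 had 0.1525. The count of members lower by 1.1-fold (0) was 1 with probe sets averaged and 1 without cross-matching probe sets, in both cases Uqcrq, at −0.175 and −0.17. The median of complex I accessory subunits was −0.005 and that of complex II −0.01 with centred arrays. No member reached 1.5-fold in any setting. For P4htm, −1.95 became −1.795 on averaging and −1.64 without cross-matching probe sets. Of 217 alternatives to single members, 214 moved by less than the pooled SD of 0.10 between probe sets. Many of these could not have moved further. Centring shifted every gene alike by the small gap between the array medians, and loess shifted members by −0.01 to 0.04. The 25 members with 1 probe set cannot move on averaging. The count is thus no measure of how firm the single values are. The 40 of 41 medians are no such measure either. In the small classes the limit was about as wide as the medians themselves, and centring could not move any median past it.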

Other observations

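Probe sets shared by a member-type gene and a copy of it were not counted among the members. The one shared by Ndufs6, which carries a zinc site in the matrix arm of complex I, and Ndufs6b had 11.77 in P4H-TM KO and 11.76 in WT. The one shared by Ndufs5 and a pseudogene had 12.90 in P4H-TM KO and 12.89 in WT, beside 0.05 on the brightest probe set of Ndufs5 alone.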
